A study of Mus musculus with 6 samples.

Results

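The genes described here encode receptors for interleukins and interferons, with related receptors for leptin, growth hormone, leukaemia inhibitory factor and thymic stromal lymphopoietin. They were chosen by name, as a list of 37 mouse genes, and a gene entered when a probe set of the array carried its symbol and no other. Of the 37 genes, 32 were measured in this way, each by 1 probe set, among 19938 genes in all. The other 5 genes, Il1r1, Il1rl1, Il2rg, Il11ra1 and Prlr, were not analysed here.

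The study measured mouse bone marrow cells that had been transduced with a murine stem cell virus (MSCV) retroviral vector carrying MN1 and a reporter, or with empty vector. MN1 is a transcriptional coregulator that is often highly expressed in acute myeloid leukaemia. Cells positive for the fluorescent reporter were sorted 72 hours after transduction. The reporter is GFP by the sample labels but YFP by the design text. Both groups held 3 arrays, from transductions that the series description calls independent experiments. In such a vector the viral promoter drives MN1, so its level is not that of the marrow cell's own gene. The labels do not state the strain, age or sex of the animals, how many were pooled, how the marrow was enriched or cultured, or the species of the MN1 cDNA.

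Cytokine receptors are built from a small set of shared chains. Class I and class II receptors, which bind most interleukins and the interferons, carry Janus kinases on their cytoplasmic tails and signal through STAT transcription factors. IL-1 family and IL-17 receptors instead recruit adaptors such as MyD88 and Act1. In bone marrow these receptors govern how progenitors respond to inflammation, and interferon receptors are known to act on stem cells directly. Decoy and inhibitory receptors of the IL-1 family limit such signals.

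All 6 arrays had medians between 5.82 and 6.01 on the log2 scale, on which 1 unit is a 2-fold step. The probe set of mouse Mn1 measured 5.34, 5.41 and 4.80 on the empty vector arrays and 6.47, 6.62 and 6.08 on the MN1 arrays. The difference was 1.20 ± 0.21 (SE) with an adjusted p of 0.584 (limma). As the species of the cDNA is not stated, how far this probe set reads the transduced gene is not known. General haematopoietic markers lay far above these medians: Ptprc, the leukocyte antigen CD45, ran from 10.25 to 10.82 and the myeloid transcription factor gene Spi1 from 11.38 to 12.29. Some differences between arrays crossed the groups or followed them only in part. Array means of 3 Y-linked genes were 5.78, 3.78 and 7.04 for the empty vector, and 7.11, 6.12 and 7.57 for MN1. The groups overlapped, yet all 3 of these genes leaned toward MN1 (median log2 difference 1.52). Y-linked level was thus partly mixed with the comparison. Xist, expressed from the inactive X chromosome, ran from 8.70 to 10.25. The 9 neutrophil markers had means of 8.38 to 11.44 on the empty vector arrays, highest on replicate 2, and of 8.89 to 9.12 on the MN1 arrays. Along the groups, the 9 measured monocyte and macrophage markers had means of 9.59 to 10.19 with the empty vector and 10.56 to 11.29 with MN1. Array means of the 5 measured erythroid markers went the other way, at 6.80 to 7.22 and 6.04 to 6.69. Of these genes 4 were lower with MN1 and 1, Epor, was higher by 0.24. All 6 measured megakaryocyte and platelet markers were higher with MN1, with overlapping array means of 8.58 to 9.95 and 9.66 to 11.28.

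No receptor gene passed the test. With limma and Benjamini-Hochberg adjustment over all 19938 genes, 0 of 32 members had an adjusted p under 0.05, as had 0% of all genes, and the smallest adjusted p of a member was 0.584. Each value that follows is therefore a measured difference and not a call. Of the 32 members, 20 were higher with MN1, or 62.5%, against 43.3% of all genes. With the arrays centred on their medians these shares were 68.8% (22 members) and 50.1%, and with array weights 17 members were higher. The shares were not matched for level: 6 of 32 members lay below the median on all 6 arrays, against 7487 of 19938 genes. Brighter genes with a small p were more often higher, and the direction of all brighter genes was not counted. After removal of the dimmest 40%, 599 genes were higher and 251 lower at an unadjusted p under 0.05 (limma). The median log2 difference (MN1 minus empty vector) was 0.05 over the members and -0.03 over all genes. At an unadjusted p under 0.05, 3 members were higher, where 4.17% of all genes were, and 2 were lower, where 4.23% of all genes were. Over all genes these were 832 higher and 843 lower genes, and 977 and 400 after each array was centred on its median. Every MN1 value exceeded every empty vector value for 3 members, or 9.38% against 5.71% of all genes. The reverse order held for 3 others, again 9.38%, against 10.3% of all genes. These shares rest on 3 genes in each direction. For 18 of the 32 members the difference was smaller than its own standard error.

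**Figure D1:**
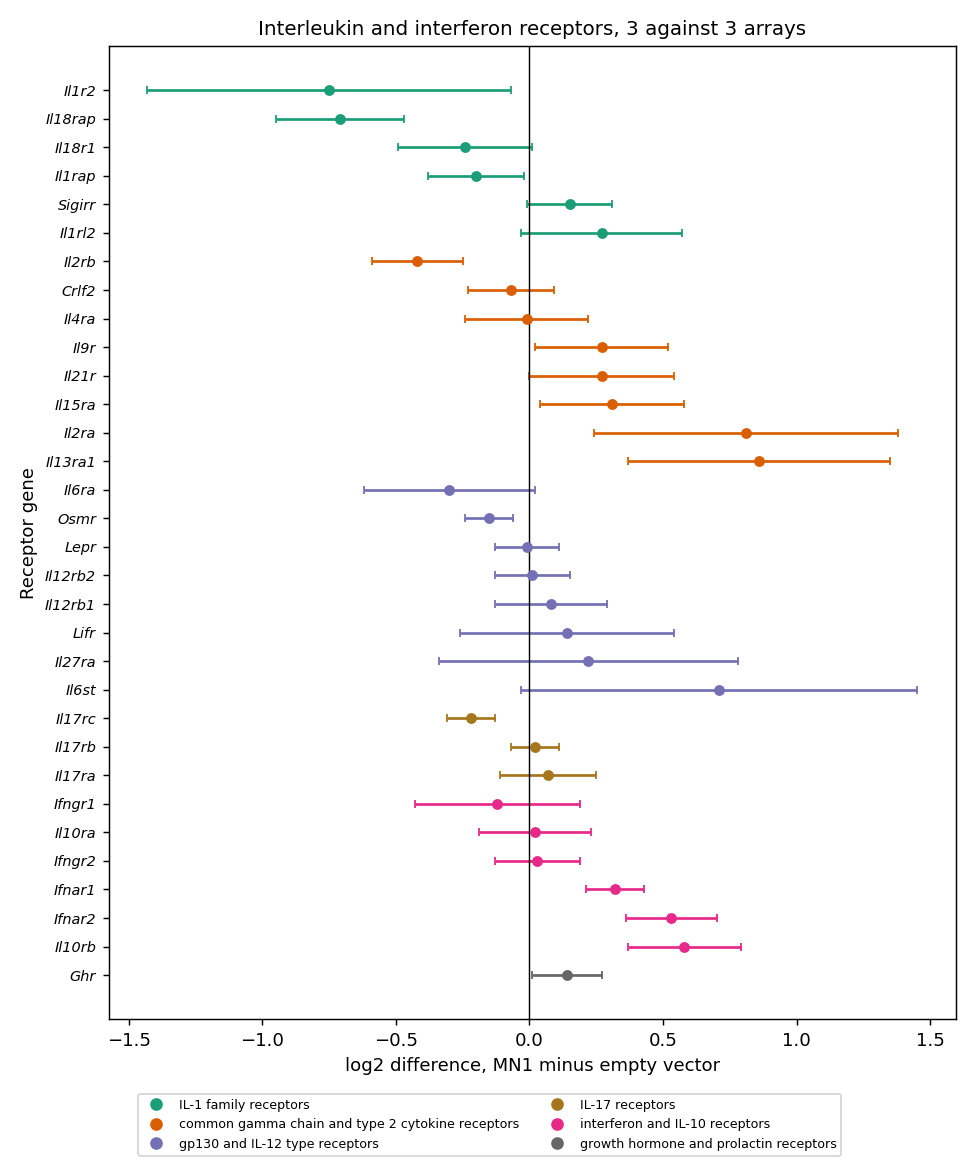
Log2 difference between the MN1 and the empty vector arrays (x axis) for each of the 32 measured receptor genes (y axis), coloured by role; points are differences from limma and bars the standard error, with 3 arrays in each group. Il10rb, Ifnar2 and Ifnar1 lie right of 0 by more than 2 standard errors and Il18rap, Il2rb and Il17rc lie left of it by more than 2, while most genes lie near 0.

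The receptors for interferons and interleukin 10 held the 3 members that were higher on every MN1 array. Ifnar2, the chain of the type I interferon receptor that is constitutively bound by JAK1, measured 9.93, 10.05 and 10.18 with the empty vector and 10.82, 10.23 and 10.68 with MN1. The groups did not overlap, although MN1 replicate 2 lay only just above the highest empty vector array. Its log2 difference was 0.53 ± 0.17 (SE), or 1.44-fold, with an unadjusted p of 0.0198 and an adjusted p of 0.584 (limma). Ifnar1, the partner chain that binds TYK2, measured 9.98, 9.69 and 9.87 with the empty vector and 10.19, 10.08 and 10.23 with MN1. Its values were tight within both groups and did not overlap, with a difference of 0.32 ± 0.11 (SE), 1.25-fold (unadjusted p = 0.026, adjusted p = 0.584, limma). Il10rb, the chain shared by the receptors for IL-10, IL-22 and the lambda interferons, measured 10.54, 10.18 and 10.19 against 11.29, 10.61 and 10.76. MN1 replicate 1 was the highest array and the groups were separated by a small gap. Its difference was 0.58 ± 0.21 (SE), 1.5-fold (unadjusted p = 0.0277, adjusted p = 0.584, limma).

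The remaining 3 members of this class did not follow. Ifngr2, the signalling chain of the interferon gamma receptor, measured 11.56, 11.19 and 11.06 with the empty vector and 11.17, 11.26 and 11.47 with MN1. The difference was 0.03 with a 95% interval of -0.35 to 0.41. Ifngr1, the ligand-binding chain of the same receptor, differed by -0.12 ± 0.31 (SE), with overlapping groups. For Il10ra, which binds IL-10, the difference was 0.02 ± 0.21 (SE). Over the class of 6 genes, 5 were higher and 1 lower, but 4 and 2 after quantile normalization. The differences of Ifnar2, Ifnar1 and Il10rb remained positive with each array left out in turn, at 0.41 to 0.70, 0.24 to 0.39 and 0.38 to 0.72. Their unadjusted p was less stable: without empty vector replicate 2 or without MN1 replicate 1, none of the 3 stayed under 0.05 (limma), and the 1 higher member under it was Il13ra1 or Il15ra, respectively. All 3 also kept groups that did not overlap after the arrays were centred on their medians and after quantile normalization. Monocyte and macrophage markers were higher on the same arrays: 8 of 9 measured markers were higher with MN1, 4 of them without overlap, and C1qa differed by 1.76 ± 0.64 (SE). Of all genes, 43.3% were higher and 5.71% were higher without overlap. Megakaryocyte and platelet markers were higher in 6 of 6 measured genes, 2 of them without overlap. The part of these cells in the receptor differences was not tested. In RNA from mixed cells, a change in the share of a cell type and a change in the RNA of each cell cannot be told apart.

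Position on the chromosome is something these genes share that the choice of members did not use. In the RefSeq annotation of mouse assembly GRCm38.p6, Ifnar2, Il10rb, Ifnar1 and Ifngr2 follow each other in this order on chromosome 16 with no other protein-coding gene between them. The 3 that were higher with MN1 are the first 3 of the run, and Ifngr2 is the last. The nearest 3 protein-coding genes on one side, 4932438H23Rik, Olig2 and Olig1, differed by -0.09, -0.10 and -0.22 (SE 0.30, 0.12 and 0.12). Those on the other side, Tmem50b, Dnajc28 and Gart, differed by -0.04, 0.16 and -0.11, each by less than its standard error. These flanking genes were looked up after the receptor values had been seen.

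The promoters of this run are shown because Ifnar2 and Ifnar1, which were higher with MN1, can be set beside Ifngr2, which was not. The window of Il10rb, the third gene that was higher, is not shown, so the motifs below do not cover it. Each window runs from 250 bases before to 50 bases after a RefSeq transcript start in GRCm38.p6, on the plus strand, 5′ to 3′. Capitals mark matches to TTCNNNGAA, the palindromic core with 3 bases of spacing that many STAT factors recognise.
Ifnar2, chr16:91372533-91372832: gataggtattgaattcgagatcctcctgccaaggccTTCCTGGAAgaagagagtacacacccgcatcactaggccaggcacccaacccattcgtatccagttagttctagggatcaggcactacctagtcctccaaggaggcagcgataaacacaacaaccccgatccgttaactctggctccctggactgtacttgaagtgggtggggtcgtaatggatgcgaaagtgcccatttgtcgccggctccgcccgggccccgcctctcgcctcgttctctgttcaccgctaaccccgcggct
Ifnar1, chr16:91484965-91485264: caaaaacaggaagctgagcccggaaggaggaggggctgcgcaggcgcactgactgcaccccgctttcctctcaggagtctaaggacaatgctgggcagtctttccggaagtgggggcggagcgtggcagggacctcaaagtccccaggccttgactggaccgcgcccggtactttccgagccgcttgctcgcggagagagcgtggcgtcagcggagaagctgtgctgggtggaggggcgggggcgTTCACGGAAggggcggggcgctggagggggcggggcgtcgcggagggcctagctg
Ifngr2, chr16:91546809-91547108: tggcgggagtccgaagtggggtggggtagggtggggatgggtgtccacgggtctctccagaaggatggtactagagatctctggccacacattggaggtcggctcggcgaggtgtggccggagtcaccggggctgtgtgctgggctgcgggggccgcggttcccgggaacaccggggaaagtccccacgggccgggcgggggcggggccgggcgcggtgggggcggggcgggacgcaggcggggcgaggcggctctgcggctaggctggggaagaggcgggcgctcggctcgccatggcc
Ifnar2 and Ifnar1 each held 1 match, and these letters are not in the Ifngr2 window. With 4 bases of spacing, the form that STAT6 prefers, the Ifngr2 window held 1 match and those of Ifnar2 and Ifnar1 held 0, so the contrast depends on the spacing searched. The wider form, searched after the windows were seen, was in 6.95% of all windows and in 4 of 41 receptor windows, those of Ifngr2, Il18r1 and Il18rap. Of 32851 promoter windows of all genes, 8.3% held such a match on either strand. Of 41 windows for 30 of the 37 receptor genes, 6 did, or 14.6%, those of Ifnar1, Ifnar2, Il12rb2, Il18r1, Il1r2 and Prlr. The core of the interferon-stimulated response element, searched as a pair of GAAA repeats with 2 bases between them, was in 3.44% of all windows and in 1 receptor window, that of Il1rap. The retinoid receptor half-site AGGTCA was in 16.3% of all windows and in 3 receptor windows, of Il1rl1, Il21r and Lifr. The windows were 57% GC for Ifnar2, 68.3% for Ifnar1 and 74.3% for Ifngr2. A match in letters is a description and not a bound site.

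**Figure D2:**
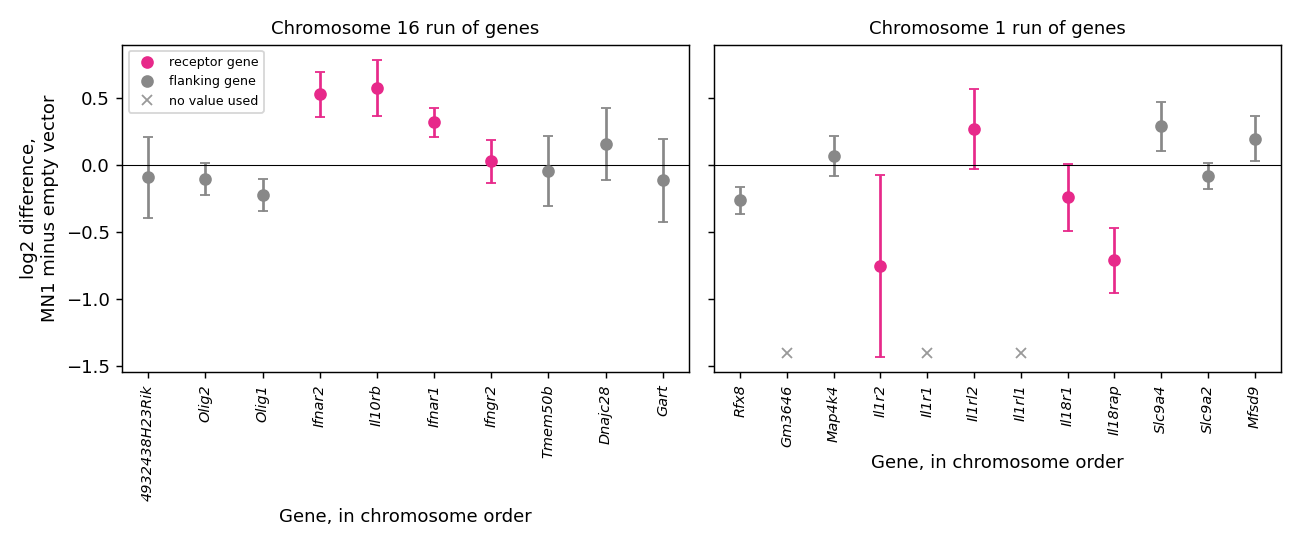
Log2 difference between MN1 and empty vector (y axis, points with standard error bars, 3 arrays in each group) for receptor genes and their nearest protein-coding neighbours in chromosome order (x axis); crosses at the bottom stand for genes with no value used. On chromosome 16 Ifnar2, Il10rb and Ifnar1 lie above 0, and Ifngr2 and the flanking genes, most of them dim, lie closer to it. On chromosome 1 Il18rap lies lowest relative to its error.

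In the IL-1 receptor family, 4 of the 6 genes measured had lower values with MN1, and the class median was -0.22. The lowest relative to its error was Il18rap, the accessory chain that interleukin 18 needs for signalling, at 8.85, 9.53 and 8.60 with the empty vector and 8.20, 8.22 and 8.43 with MN1. All MN1 values lay below all empty vector values, and empty vector replicate 2 was the highest array. The difference was -0.71 ± 0.24 (SE), 1.63-fold, with an unadjusted p of 0.0239 and an adjusted p of 0.584 (limma). Without empty vector replicate 2 it was -0.44, which is smaller than with all arrays by more than 1.5 times. Il18r1, the chain that binds interleukin 18, measured 4.73, 5.31 and 4.37 against 4.55, 4.80 and 4.34. These values lay below the array median on all 6 arrays, and the difference was -0.24 ± 0.25 (SE).

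Il18rap is shown with its promoter because it had the lowest values relative to error of all members. The window is that of GRCm38.p6, plus strand, 5′ to 3′, and capitals mark a match to GAGGAAGT, the purine-rich core bound by the myeloid factor PU.1.
Il18rap, chr1:40515112-40515411: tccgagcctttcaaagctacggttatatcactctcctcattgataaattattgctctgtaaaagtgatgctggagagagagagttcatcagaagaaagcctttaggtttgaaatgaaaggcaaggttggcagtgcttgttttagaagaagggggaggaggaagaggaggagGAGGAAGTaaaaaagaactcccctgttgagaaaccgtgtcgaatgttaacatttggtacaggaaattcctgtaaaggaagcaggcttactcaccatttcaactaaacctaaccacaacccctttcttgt
This motif was in 3.2% of all promoter windows on either strand, and in 1 of the 41 receptor windows.

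Il1r2, a decoy receptor that binds interleukin 1 without signalling, had the most negative difference but also one of the widest spreads. It measured 7.63, 9.49 and 8.24 with the empty vector and 8.29, 6.39 and 8.41 with MN1. The groups overlapped: the difference of -0.75 ± 0.68 (SE) rested on a high value in empty vector replicate 2 and a low value in MN1 replicate 2. It was -0.23 without the first of these arrays and -0.10 without the second. Il1rap, the accessory chain shared by several IL-1 family receptors, differed by -0.20 ± 0.18 (SE). Higher values with MN1 were measured for Il1rl2, the receptor for the Il36 cytokines, at 0.27 ± 0.30, and for Sigirr, an inhibitor of IL-1 family signalling, at 0.15 ± 0.16 (SE). On chromosome 1 the genes Il1r2, Il1r1, Il1rl2, Il1rl1, Il18r1 and Il18rap also form an unbroken run, and its 4 measured members did not share a direction.

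Markers of cell types that can carry these receptors differed between the same arrays. Neutrophil markers were lower with MN1 in 8 of 9 genes, with a median of -1.09, and they were highest on empty vector replicate 2, as were Il18rap and Il1r2. Eosinophil markers were lower in 7 of 7 measured genes, with array means of 6.51 to 8.50 with the empty vector and 6.38 to 7.28 with MN1. Markers of T and NK cells were lower in 8 of 11 measured genes, 3 of them without overlap, with array means of 6.09 to 6.32 against 5.69 to 6.02. Over all genes, 11310 of 19938 were lower, and 10.3% were lower without overlap. Among the defining genes, the T cell gene Cd3e lay at 5.48 to 5.97 and the NK cell gene Ncr1 at 3.74 to 4.37, near or below the array medians. Not all of this list was dim: Thy1 lay at 8.14 to 11.19 and Nkg7 at 9.44 to 10.44, with differences of -1.10 ± 0.59 and -0.39 ± 0.26 (SE). Prf1, 1 of the 3 that were higher, differed by 0.73 ± 0.57 (SE). The part of these cells in the differences of Il18rap and Il1r2 was not tested.

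**Figure D3:**
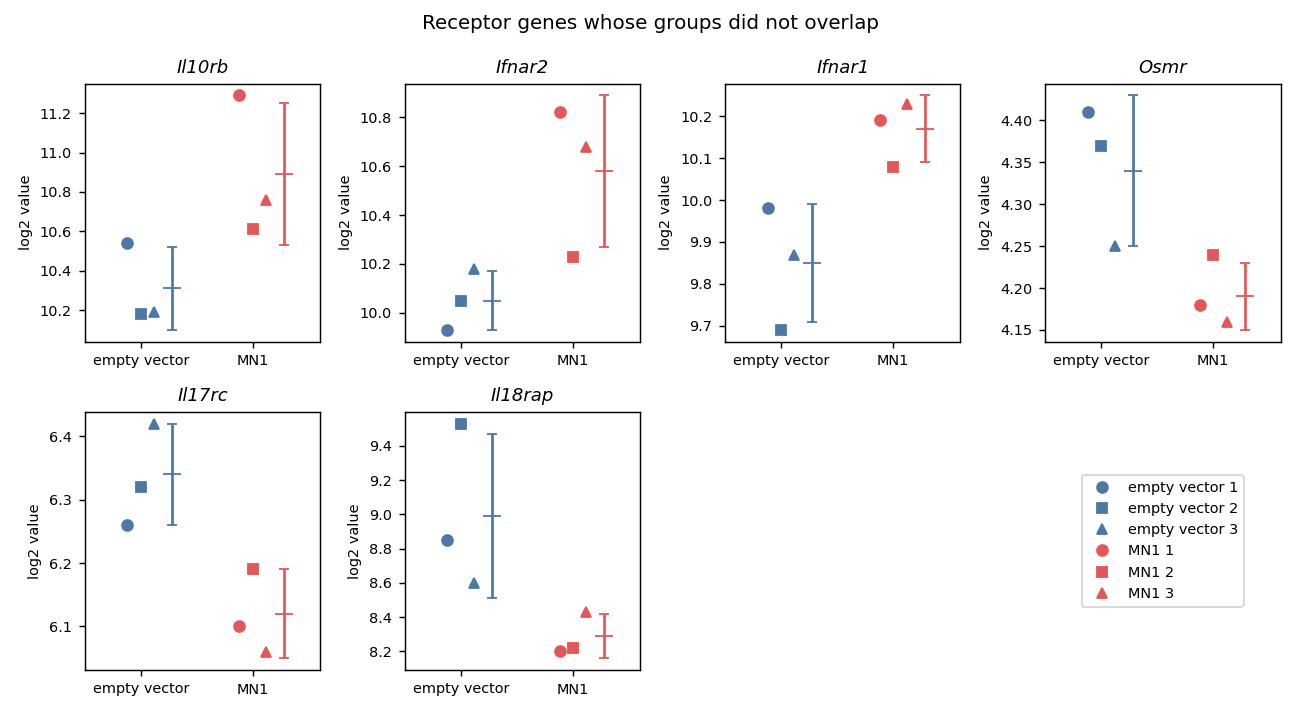
Log2 value (y axis, a separate range in each panel) of the 6 receptor genes for which the empty vector and MN1 groups (x axis) did not overlap; symbols are single arrays and bars the mean with SD of 3 arrays. Il10rb, Ifnar2 and Ifnar1 were higher with MN1, and Osmr, Il17rc and Il18rap were lower, with Osmr and Il17rc spanning less than 0.5 units.

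Receptors that pair with the common gamma chain, with those for interleukin 13 and thymic stromal lymphopoietin, had a median difference of 0.27, and 5 of 8 measured members were higher. Il2rb, the signalling chain shared by the receptors for interleukins 2 and 15, was the exception by its p. It measured 5.67, 5.11 and 5.55 with the empty vector and 4.96, 4.97 and 5.14 with MN1. Its values lay below the median of every array, and the groups overlapped only through empty vector replicate 2. The difference was -0.42 ± 0.17 (SE), with an unadjusted p of 0.0419 and an adjusted p of 0.584 (limma). After median-centring or quantile normalization the difference was -0.39 or -0.38, and the unadjusted p was no longer under 0.05.

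The largest positive differences among all members were in Il13ra1 and Il2ra, and both came with wide spread. Il13ra1, which binds interleukin 13 and pairs with the interleukin 4 receptor, measured 6.83, 8.16 and 6.70 with the empty vector and 8.52, 7.30 and 8.44 with MN1. Its values fell into 3 high arrays (MN1 replicates 1 and 3 together with empty vector replicate 2) and 3 low ones. The difference was 0.86 ± 0.49 (SE, unadjusted p = 0.128, adjusted p = 0.613, limma), and 1.32 without empty vector replicate 2. The ligand gene Il18, named after its values were seen, was high on the same 3 arrays, at 6.37, 6.31 and 6.40 against 4.36 to 5.16 on the others. Il2ra (CD25), a chain of the high-affinity interleukin 2 receptor, measured 8.95, 7.18 and 9.24 with the empty vector and 8.66, 9.42 and 9.72 with MN1. Empty vector replicate 2 alone lay below 8, and the difference of 0.81 ± 0.57 (SE) was 0.17 without it.

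Among the other members of this class, Il15ra, which presents interleukin 15, differed by 0.31 ± 0.27 (SE), Il9r by 0.27 ± 0.25 and Il21r by 0.27 ± 0.27. Il9r, the receptor of a mast cell and T cell growth factor, rested on MN1 replicate 2, at 7.85 against 6.83 to 7.13 on the other arrays, and its difference without that array was -0.01. Il4ra, the shared chain of the interleukin 4 and 13 receptors, differed by -0.01, with a 95% interval of -0.56 to 0.54. Crlf2, the receptor for thymic stromal lymphopoietin, was nearly constant over the MN1 arrays, at 9.42, 9.44 and 9.44, and differed by -0.07 ± 0.16 (SE).

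Receptors built on gp130, with those for interleukins 12 and 27, leptin, leukaemia inhibitory factor and oncostatin M, had a class median of 0.05. For 7 of the 8 genes measured the difference was smaller than its standard error, and the direction was upward for 5. Il6st, which encodes gp130 itself, measured 10.27, 9.85 and 7.96 with the empty vector and 11.16, 9.98 and 9.08 with MN1. Replicate 3 was lowest in both groups, and the values within a group spread over 2.32 and 2.08 units. The difference of 0.71 ± 0.74 (SE) was 0.01 without empty vector replicate 3. Il27ra, which pairs with gp130 to bind interleukin 27, ran the other way, with its highest values on replicate 3 of both groups, 9.15 and 9.20, and 7.35 to 8.35 on the other arrays.

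Il6ra, the chain that binds interleukin 6, measured 9.75, 10.47 and 9.31 against 9.81, 9.16 and 9.65, with overlapping groups and a difference of -0.30 ± 0.32 (SE). Osmr, the oncostatin M receptor, measured 4.41, 4.37 and 4.25 with the empty vector and 4.18, 4.24 and 4.16 with MN1, below the median of every array. The groups did not overlap, by a gap of about 0.01, and the difference was -0.15 ± 0.09 (SE, unadjusted p = 0.147, adjusted p = 0.623, limma). After median-centring the groups of Osmr overlapped. Lifr, the receptor for leukaemia inhibitory factor, was high on MN1 replicate 1 alone, at 6.33 against 4.79 to 5.29 on the other arrays. Its difference of 0.14 ± 0.40 (SE) turned to -0.34 without that array. The interleukin 12 receptor chains Il12rb1 and Il12rb2 differed by 0.08 ± 0.21 and 0.01 ± 0.14 (SE). Lepr, the leptin receptor, which marks stromal cells of the marrow, lay at 3.71 to 4.05 on all 6 arrays and differed by -0.01 ± 0.12 (SE).

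**Figure D4:**
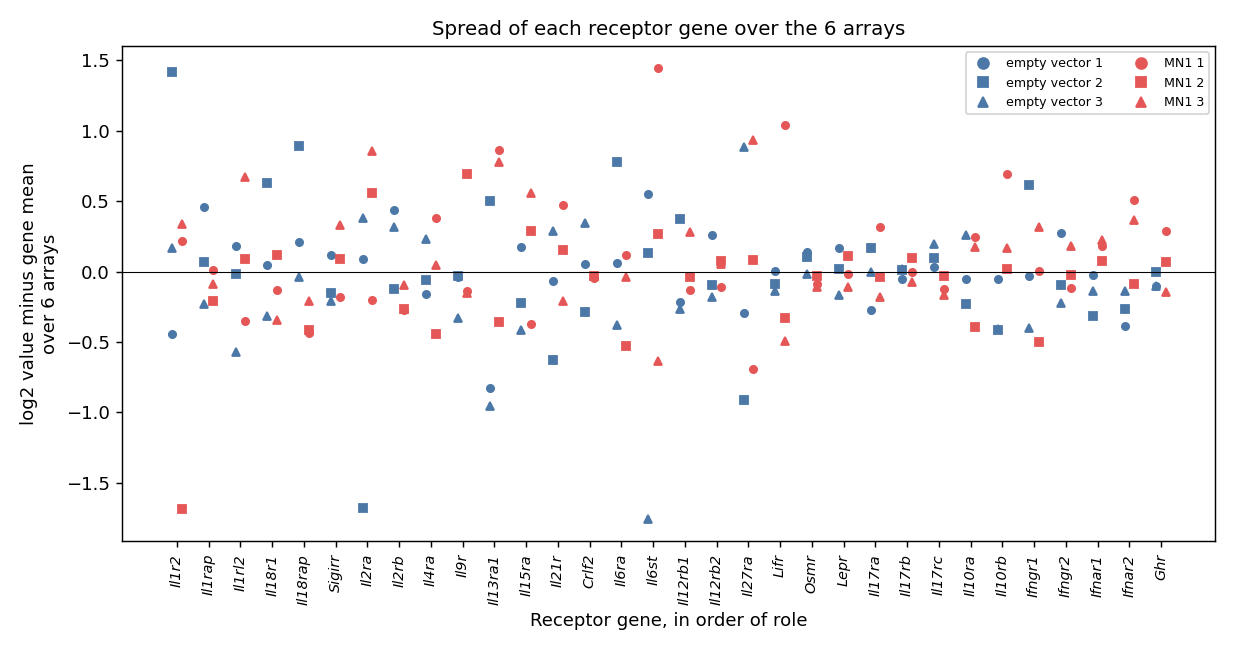
Log2 value of each receptor gene on each array, minus that gene's mean over the 6 arrays (y axis), with genes in order of role (x axis), blue for empty vector and red for MN1 and a symbol for each replicate number. Il1r2, Il2ra, Il6st, Il13ra1 and Il27ra spread over 1 unit or more within both groups, while within each group Il17rb, Il17rc and Osmr spread over 0.18 units or less.

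Receptors of the interleukin 17 family differed little. Il17rc, a chain that pairs with Il17ra, measured 6.26, 6.32 and 6.42 with the empty vector and 6.10, 6.19 and 6.06 with MN1. The groups did not overlap, and the difference of -0.22 ± 0.09 (SE) had an unadjusted p of 0.0569 and an adjusted p of 0.584 (limma). Il17ra, the shared signalling chain, differed by 0.07 with a 95% interval of -0.36 to 0.49. Il17rb, which binds interleukin 25, lay at 5.23 to 5.40 on all arrays and differed by 0.02 ± 0.09 (SE). Ghr, the growth hormone receptor, lay below the median of every array and differed by 0.14 ± 0.13 (SE). In all, 6 of the 32 members lay below the median on all 6 arrays, namely Il18r1, Il2rb, Osmr, Lepr, Il17rb and Ghr, and no detection call was used to tell such values from background.

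Of the 37 genes for ligands of these receptors, 25 had lower values with MN1, as had 11310 of all 19938 genes. The median was -0.13, and 0 passed adjustment. The groups did not overlap for 12 ligands that were lower, or 32.4%, where 10.3% of all genes did so, and for 1 that was higher, Il15. Of these 12, the difference was only -0.12 to -0.41 for 8, and 5 (Il11, Il12b, Il17a, Il21 and Lep) lay below the median of every array. After median-centring, 7 ligands were lower without overlap, or 18.9%, where 6.17% of all genes were, and the groups of Lif overlapped. Il6, an inflammatory cytokine that signals through Il6ra and Il6st, measured 10.31, 10.14 and 10.56 with the empty vector and 8.77, 9.02 and 9.99 with MN1. All MN1 values were lower, and the difference was -1.08 ± 0.32 (SE, unadjusted p = 0.0133, adjusted p = 0.584, limma). Il4, a type 2 cytokine, measured 6.87, 6.93 and 6.11 against 5.22, 5.75 and 5.73, also without overlap, with a difference of -1.07 ± 0.26 (SE). Il13, which shares receptor chains with Il4, differed by -1.01 ± 0.58 with overlapping groups.

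Lif and Osm, like Il6, encode ligands of gp130 receptors. Lif, the leukaemia inhibitory factor gene, measured 9.01, 8.95 and 8.51 with the empty vector and 7.57, 7.52 and 8.43 with MN1. MN1 replicate 3 lay close to the lowest empty vector array, and the difference was -0.98 ± 0.28 (SE). Osm, which encodes oncostatin M and was named after its values were seen, measured 10.31, 10.87 and 10.37 against 9.44, 9.07 and 10.16, a difference of -0.96 ± 0.30 (SE). In contrast, Il15, also named after its values were seen, measured 5.54, 5.39 and 4.94 with the empty vector and 6.30, 6.55 and 5.86 with MN1. It was higher on every MN1 array, by 0.95 ± 0.23 (SE, unadjusted p = 0.00546, adjusted p = 0.584, limma). Mast cell and basophil markers were lower in 9 of 10 genes, with a median of -0.61 and array means of 10.86 to 11.31 with the empty vector and 9.65 to 10.92 with MN1, and their part in the ligand differences was not tested.

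**Figure D5:**
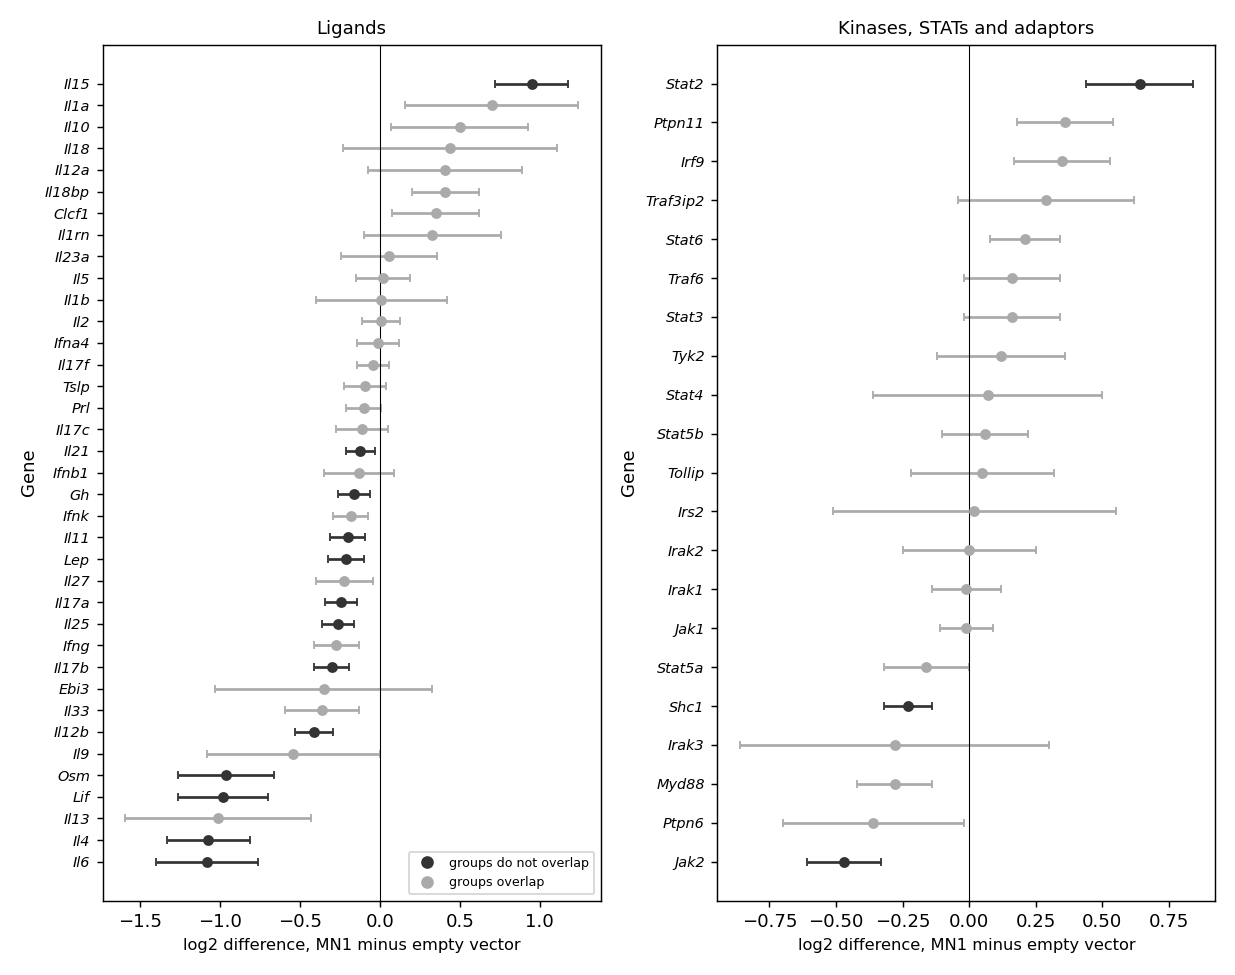
Log2 difference between MN1 and empty vector (x axis, points with standard error bars, 3 arrays in each group) for 37 ligand genes and 21 measured genes of Janus kinases, STATs and adaptors (y axis); dark points are genes whose groups did not overlap. Il6, Il4, Lif and Osm lie near -1 and Il15 near 1, and among the signalling genes Stat2 lies highest and Jak2 lowest.

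Among 21 measured kinases, STATs and adaptors, 13 had higher values with MN1, as had 43.3% of all genes. The median was 0.05, and 0 passed adjustment. The largest difference was in Stat2, the STAT that is specific to interferon signalling, at 9.65, 9.38 and 8.87 with the empty vector and 9.97, 9.90 and 9.96 with MN1. Its groups did not overlap, and the difference was 0.64 ± 0.20 (SE, unadjusted p = 0.0161, adjusted p = 0.584, limma). Irf9, its partner in the interferon-induced transcription complex, named after its values were seen, differed by 0.35 ± 0.18 (SE) with overlapping groups. Jak2, the kinase of the interferon gamma, growth hormone and many haematopoietic receptors, was lower on every MN1 array, at 10.42, 10.28 and 10.71 against 11.06, 10.84 and 10.91. The difference was -0.47 ± 0.14 (SE), and its groups overlapped after median-centring. The phosphatase gene Ptpn11 differed by 0.36 ± 0.18 and Ptpn6, a phosphatase that dampens cytokine signalling, by -0.36 ± 0.34 (SE). Jak1, which serves many of these receptors and was named after its values were seen, differed by -0.01 ± 0.10 (SE). Under quantile normalization the split of this list was 9 higher and 12 lower, with a median of -0.02.

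Of 23 measured receptors of the same families outside the list, 17 had lower values with MN1, as had 11310 of all 19938 genes. The median was -0.07, 0 passed adjustment, and 11 of the 23 lay below the median on all 6 arrays. After median-centring 15 were lower, where 9953 of all genes were. Il7r, the interleukin 7 receptor of lymphoid progenitors and monocytic cells, differed by 1.50 ± 0.73 (SE) with overlapping groups, at 7.90 to 10.08 with the empty vector and 9.26 to 11.51 with MN1. Il20ra, a chain of the interleukin 20 receptor, measured 4.64, 4.70 and 4.98 against 5.30, 5.77 and 5.34, below the median of every array, with a difference of 0.70 ± 0.17 (SE, unadjusted p = 0.00498, adjusted p = 0.584, limma). Ifnlr1, which pairs with Il10rb to bind lambda interferons, differed by -0.44 ± 0.31, and Il20rb by -0.42 ± 0.36 (SE). Ifnlr1 and Il10ra each pair with Il10rb, and neither was higher on every MN1 array. Il22ra1, of the interleukin 22 receptor, was named after its values were seen and differed by -0.14 ± 0.11 (SE), with overlapping groups.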

How the data were processed

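Total RNA, 200 ng per sample, was labelled with biotin by an Affymetrix whole-transcript assay, as the labels' protocols state. The deposited values are log2 expression values per probe set, made by the authors with RMA, per the submitters' processing notes. Its version is not given in the sources used here. Per the values, they run from 2.29 to 14.80. RMA draws dim values together, which understates differences there, and the number of arrays limits precision.

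All 6 value columns were used. Of 35557 probe sets, 21789 carried 1 gene symbol in the platform annotation of 2016, 1621 several and 12147 none; genes with several kept the probe set with the highest mean, leaving 19938. limma 3.58.1 in R 4.3.3 (lmFit, eBayes) compared 3 MN1 with 3 empty vector arrays, two-sided, without a block, with Benjamini-Hochberg adjustment over all genes at 0.05. The fit had 4 residual and 2.43 prior degrees of freedom and was tested on simulated data. The simulated differences were larger than that of any member, so this does not show how often differences of the members' size would be found. The 95% intervals use the moderated SE.

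The members and lists were chosen with earlier results of these data known. Values of every array are given for members with groups that do not overlap, an unadjusted p under 0.05 or a difference of at least 0.5, and up to 4 genes with the largest difference are named in each other pathway list. Lepr is also on the stromal marker list. Replicate numbers in the titles are not stated to mark the experiments, so the samples were not treated as pairs. Deviations from the group means correlated at 0.13, 0.07 and 0.32 for same-numbered arrays and at -0.50 to 0.44 for the others. These values do not show whether the numbers mark pairs. Promoter sequences are from RefSeq, GRCm38.p6.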

Additional observations from a re-analysis of the deposited data

How the results depend on the processing

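No receptor gene passed the threshold under any of the 15 alternatives with a test or at an adjusted p under 0.1, and the lowest adjusted p of a member was 0.50. With the replicate number as a block (replicate block), 0 genes passed, 4 members were higher and 2 lower at an unadjusted p under 0.05, Il6st being the added member, and the median stayed at 0.05. The unadjusted counts over all genes, 832 higher and 843 lower, were 977 and 400 after median-centring, 599 and 251 after removal of the dimmest 40% of genes, and 1287 and 1270 with every probe set tested. Lower members numbered 1 after median-centring, quantile normalization, removal of dim genes or a block for Y-linked level. Leaving out each array in turn gave 508 to 1044 higher and 398 to 1037 lower genes, 1 to 4 higher and 0 to 2 lower members, 16 to 19 members above 0 and medians of 0.00 to 0.11. Only 1 member was lower at an unadjusted p under 0.05 without empty vector replicate 1, 3, MN1 replicate 1 or 3, and 0 without MN1 replicate 2; 1 was higher without empty vector replicate 2 (Il13ra1) or 3 (Ifnar2) or MN1 replicate 1 (Il15ra) or 3 (Il10rb).

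Within the 3 arrays with higher Y-linked levels (empty vector replicate 3, MN1 replicates 1 and 3) 11 of 32 members had the opposite sign, and within the other 3 arrays 8 had. Among members whose difference exceeded its SE these were Il1r2, Il1rap and Il2ra, at 0.11, 0.19 and -0.05, and Il13ra1, at -0.20. Among the others, Ifngr1, Il6ra and Il27ra turned to 0.57, 0.42 and -0.77 in the first set, and Il6st to -0.08 and Lifr to -0.29 in the second. Il9r ran from -0.01 to 0.41 with each array left out. The member median was 0.17 and -0.04 in these sets. Ifnar1, Ifnar2 and Il10rb were positive in both, at 0.34 and 0.24, 0.57 and 0.24, and 0.84 and 0.24, and Il18rap and Il2rb negative in both. With Y-linked level as a block, however, Ifnar1, Il10rb and Il18rap were no longer under an unadjusted p of 0.05, leaving 2 higher members, Ifnar2 and Il9r, and 1 lower, Il2rb. Ifnar1 was also lost on removal of dim genes and with the trended, robust prior. The cause of these shifts was not tested. Fewer genes are tested where dim genes are removed, and more where every probe set is tested.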
